A study of Rattus norvegicus with 4 samples.

Results

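Chemokines and their receptors were examined in rat colon as a gene family. Members were taken by symbol from RefSeq's list of rat genes (assembly GRCr8): Pf4 and every gene named Ccl, Ccr, Cxcl, Cxcr, Xcl, Xcr, Cx3cl, Cx3cr, Ackr or Cmklr with a number. The gene table holds 59 such genes, 35 ligands and 24 receptors. Of these, 46 had a row among the 26420 rows of the deposited table, 1 row each, and 32 of the 46 held a value on every array, 19 of them ligands and 13 receptors. The other 14 rows were blank on every array (30.4%, against 30.5% of all rows), so 32 genes were compared.

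The MSCT group (labelled case) comprised 2 male rats with TNBS-induced colitis that received mesenchymal stem cells, and the control group comprised 2 male rats without transplantation. Colon RNA of each rat was hybridized to 1 one-color NimbleGen array with the dye Cy3. According to the methods, the rats were Sprague Dawley, TNBS (trinitrobenzene sulfonic acid) in ethanol was instilled into the colon, and cells made to express green fluorescent protein were infused into the tail vein. The labels describe the control animals as normal rats, while the methods and the series text name IBD controls, so whether they had colitis is unsettled here. The day of sampling also differs between sections of the study, and ages are not given in the sources used here. RNA of the infused cells and of the host cannot be told apart on these arrays, and a whole piece of colon cannot show whether fewer cells of a type or less RNA per cell lies behind a lower value. Median intensities of the 4 arrays ran from 848 to 893, and markers of the colon epithelium (Epcam, Cdh1, Krt8, Krt20, Slc26a3 and Cdx2) were measured on all of them.

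Chemokines are small secreted proteins that form gradients along which leukocytes move. They are grouped as CC, CXC, C and CX3C by the spacing of conserved cysteines near the amino terminus, and they signal through receptors that couple to inhibitory G proteins. Atypical receptors (Ackr) bind chemokines without this coupling and remove or buffer them. Homeostatic chemokines place cells in resting tissue, and inflammatory chemokines are induced in injured tissue. In the colon, stromal cells make Cxcl12, the epithelium makes Ccl20 and Ccl28, and macrophages and lymphocytes make many of the CC ligands. Cmklr1, included by its symbol, is the receptor of chemerin, a chemoattractant of another protein family.

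The question was whether this family differed between the colon of MSCT rats and that of control rats. On the log2 scale, 23 of the 32 genes were higher and 9 were lower in the MSCT group, and the median difference was 0.51, against -0.02 over all 18350 measured rows and 0.05 over the 6968 genes named by the gene table. The study screened its chips by a fold change over 2 together with an unadjusted p under 0.05. These cut-offs were applied here with limma, which fits each row and borrows variance across rows. The screen was passed by 5 of the 32 genes (15.6%), the ligand Cxcl12 and the receptors Ackr2, Cxcr3, Ccr2 and Cxcr4. All 5 were higher in the MSCT group, and none was lower. Over all rows, 4.63% passed (2.12% higher and 2.51% lower), as did 4.91% of the named genes. An unadjusted p under 0.05 was found for 9 of the 32 genes (28.1%, against 12.0% of all rows). The values of the 2 groups did not overlap in 20 genes (62.5%, against 45.8% of all rows), 15 with the MSCT arrays above and 5 with them below. No member passed an adjusted p of 0.05, nor did any other row (0%; smallest adjusted p 0.257).

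Dim rows carried most of these genes. Among the 32, 19 lay in the dimmest 25% of all rows, where 6.28% of rows passed the screen. The 24 members in the lower 50% of rows had a median difference of 0.58, with 19 higher and 4 past the screen. The 8 members in the upper 50% (Cxcl12, Ackr3, Ccl6, Ccl21, Cxcl14, Cxcl16, Ccl28 and Cx3cl1) had a median of -0.10, 4 higher and 4 lower, with 1 past the screen. Among the members, the positive median was thus seen in the dim rows, and the bright rows went both ways. Neither the median difference nor the share past the screen was computed over all rows of the lower or the upper 50%.

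**Figure D1:**
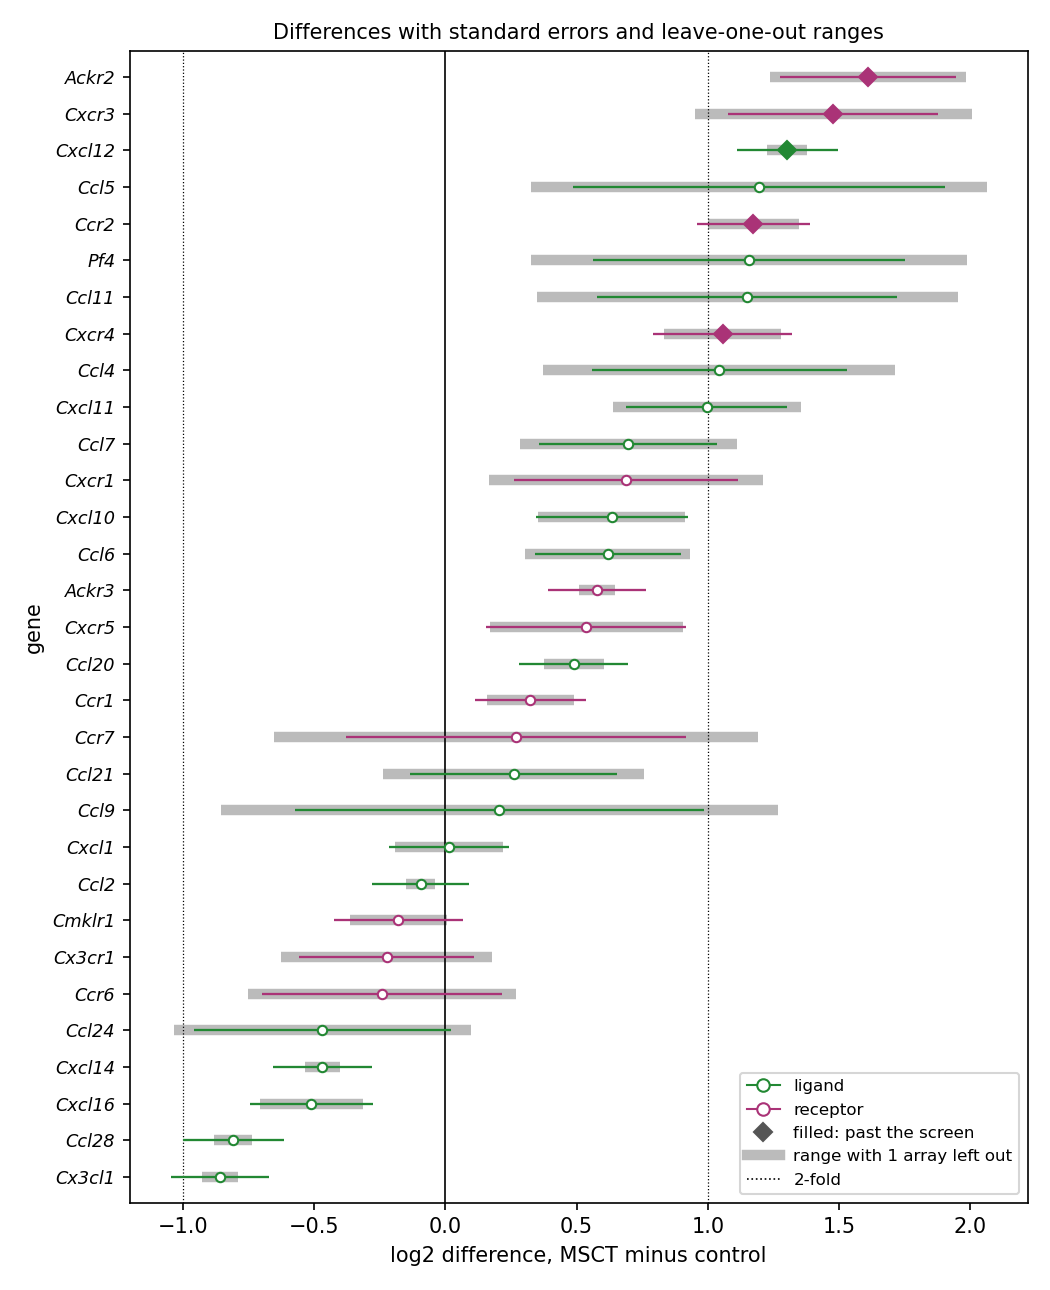
Log2 difference of the MSCT minus the control group for 31 measured genes (x axis), with genes ordered by it on the y axis. Points with thin bars give the difference and its limma standard error, grey bars the range when each of the 4 arrays is left out in turn, and filled diamonds the 5 genes past the screen, all of which lie to the right of the dotted 2-fold line.

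Among the CXC ligands, Cxcl12 (NM_001033882) passed the screen. Cxcl12 is the stromal ligand of Cxcr4 and Ackr3 and retains leukocytes and stem cells in tissues. It measured 9.22 and 9.37 in control rats, against 10.54 and 10.66 in MSCT rats (log2 intensity). Both MSCT rats were above both control rats by far more than the replicates differed. The means were 9.30 ± 0.11 and 10.60 ± 0.09 (SD, n = 2 each), a difference of 1.30 (standard error 0.19, 2.47-fold; limma adjusted p = 0.260 over all rows). With any 1 array left out, the difference stayed between 1.23 and 1.38 and passed the screen. The adjusted p was 0.0177 when the dimmest 50% of rows were left out. It was 0.0230 when the variance was allowed to depend on intensity, a setting in which limma's robust option was also on, here and below. Under the other settings with all 4 arrays it ran from 0.0854 to 0.395.

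The receptors of Cxcl12 were both higher. Cxcr4 (NM_022205), the signaling receptor on leukocytes and stem cells, measured 8.22 and 7.78 in control rats, against 8.87 and 9.24 in MSCT rats. The groups did not overlap, and the difference was 1.06 (standard error 0.27, 2.08-fold; adjusted p = 0.324). This difference had a standard error of 0.39 when the variance was allowed to depend on intensity (adjusted p = 0.239). It did not pass the screen without control replicate 2 (0.83), without MSCT replicate 2 (0.87), when 32 was added to each intensity (0.97), or in the methods' t-test. Ackr3 (NM_053352), a scavenger of Cxcl12, measured 10.43 and 10.39 in control rats, against 10.92 and 11.06 in MSCT rats. Its replicates were close to each other, and its difference of 0.58 (standard error 0.19, 1.49-fold; adjusted p = 0.370) was below the limit of 2-fold.

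Cxcl10 and Cxcl11 share the receptor Cxcr3, which is carried by activated T cells and natural killer cells, and both are induced by interferon. Cxcl11 (NM_182952) measured 7.98 and 8.15 in control rats, against 9.42 and 8.70 in MSCT rats, and the groups did not overlap. Its difference of 1.00 (standard error 0.31; adjusted p = 0.354) was 1.99-fold, just under the limit, and it passed the screen after quantile normalization (1.045), with equal array medians (1.03) and without MSCT replicate 2 (1.35). Cxcl10 (NM_139089) measured 7.61 and 7.05 in control rats, against 7.78 and 8.15 in MSCT rats, which gave a difference of 0.63 (standard error 0.29; adjusted p = 0.483). Its lower MSCT value was close to the higher control value. Cxcr3 (NM_053415) measured 6.58 and 6.75 in control rats, against 7.62 and 8.67 in MSCT rats. Both MSCT rats were above both control rats, but they were also apart from each other. The row of Cxcr3 was dim, with intensities of 95.8 and 108 in control rats, against 196 and 408 in MSCT rats. The difference was 1.48 (standard error 0.40, 2.79-fold; adjusted p = 0.335). Its standard error was 0.53 when the variance was allowed to depend on intensity (adjusted p = 0.224). Cxcr3 passed the screen without MSCT replicate 1 (2.005) and lost it when control replicate 1 (1.39), control replicate 2 (1.56) or MSCT replicate 2 (0.95) was left out and in the methods' t-test. Cxcl9, another ligand of Cxcr3, was blank.

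The promoters of Cxcl10, Cxcl11, Cxcl12 and Cx3cl1 are shown because the first pair lie close together on chromosome 14 and share a receptor, and because Cxcl12 and Cx3cl1 were the members that passed an adjusted p of 0.05 under some settings, in opposite directions. Each window runs from 250 bases before to 50 bases after the gene start, 5′ to 3′ on the gene's strand, as given by RefSeq for GRCr8 (Cxcl10: chr14:15988816-15989115, plus strand. Cxcl11: chr14:15973478-15973777, plus strand. Cxcl12: chr4:152060531-152060830, plus strand. Cx3cl1: chr19:10242771-10243070, minus strand). Capitals mark matches on either strand to an NF-kB motif (GGGAA, any 3 bases, then CC), an interferon-response motif (ISRE; GAAA, any 2 bases, then GAAA), an interferon-gamma motif (GAS; TTCNNNGAA) and the TATA box letters TATAAA, where matches may overlap.
Cxcl10: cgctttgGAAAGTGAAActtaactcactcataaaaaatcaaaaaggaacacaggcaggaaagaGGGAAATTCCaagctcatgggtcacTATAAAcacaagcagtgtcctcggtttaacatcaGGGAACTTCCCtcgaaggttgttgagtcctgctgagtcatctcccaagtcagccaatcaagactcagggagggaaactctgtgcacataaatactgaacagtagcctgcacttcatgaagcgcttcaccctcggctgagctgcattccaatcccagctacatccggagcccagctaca
Cxcl11: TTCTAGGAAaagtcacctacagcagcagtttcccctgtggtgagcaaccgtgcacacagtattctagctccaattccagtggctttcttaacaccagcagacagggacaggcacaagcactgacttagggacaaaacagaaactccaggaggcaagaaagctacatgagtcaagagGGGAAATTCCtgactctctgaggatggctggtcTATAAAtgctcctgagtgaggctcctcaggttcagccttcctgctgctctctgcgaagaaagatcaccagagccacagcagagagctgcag
Cxcl12: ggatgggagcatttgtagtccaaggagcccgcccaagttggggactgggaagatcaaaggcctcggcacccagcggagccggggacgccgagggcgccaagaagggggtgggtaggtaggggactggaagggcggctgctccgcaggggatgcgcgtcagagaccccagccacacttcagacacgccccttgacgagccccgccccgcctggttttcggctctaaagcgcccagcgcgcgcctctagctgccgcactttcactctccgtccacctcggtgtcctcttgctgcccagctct
Cx3cl1: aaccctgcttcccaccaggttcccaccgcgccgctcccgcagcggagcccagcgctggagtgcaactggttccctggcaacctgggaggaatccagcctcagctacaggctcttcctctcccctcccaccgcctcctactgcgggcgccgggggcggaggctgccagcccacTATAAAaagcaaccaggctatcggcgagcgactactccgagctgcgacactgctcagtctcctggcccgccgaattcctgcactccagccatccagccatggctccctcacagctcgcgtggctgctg

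Cxcl10 had 3 NF-kB matches, of which one pair overlap on opposite strands, 1 ISRE match and 1 TATA match. Cxcl11 had 1 match each to NF-kB, GAS and TATA, Cx3cl1 had 1 TATA match, and Cxcl12 had none of the 4 motifs in this window, 66.7% of which was G or C. Of the 44 family members with a window, 11 held the NF-kB motif (25%), as did 6.01% of all 33469 windows. The shares were 4.55% against 3.92% for ISRE, 13.6% against 8.87% for GAS and 27.3% against 14.2% for TATA. Among the measured genes with the NF-kB motif, Cxcl11, Cxcl10 and Ccl20 were higher in the MSCT group by 1.00, 0.63 and 0.49, Cxcl1 differed by 0.01 and Ccl24 by -0.47. A match describes letters only and is not a measured binding site.

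The other CXC ligands did not pass the screen. Pf4 (NM_001007729), the chemokine of platelet granules, measured 6.93 and 7.26 in control rats, against 7.42 and 9.08 in MSCT rats. Only MSCT replicate 2 stood well above the rest, and the difference of 1.16 (standard error 0.59; adjusted p = 0.516) was 0.33 without that array and 1.99 without MSCT replicate 1. Gp1bb, the platelet marker with a measured row, differed by -0.02. Cxcl1, a ligand for neutrophils, had the same mean in both groups to within its error (difference 0.01, standard error 0.23), with values between 7.15 and 7.56 on all arrays. Cxcl2 and Cxcl6, neutrophil ligands of the same kind, were blank, as was Cxcl13, which attracts B cells.

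Lower values in the MSCT group were seen in 4 ligands that epithelial cells of mucosa or skin are known to make. This grouping was made after the values were seen, and Ccl20, which the epithelium also makes, went the other way (0.49, with both MSCT arrays above both control arrays). The row of Ccl20 was dim, unlike those of the 4 ligands, with intensities of 132 and 152 in control rats, against 215 and 183 in MSCT rats. Cx3cl1 (NM_134455), or fractalkine, is a membrane-bound chemokine that attracts macrophages and T cells bearing Cx3cr1. It measured 11.86 and 11.79 in control rats, against 10.90 and 11.03 in MSCT rats, with no overlap and little spread. The difference was -0.86 (standard error 0.19, 0.551-fold; adjusted p = 0.298), and the fold was under the limit of the screen. The adjusted p was 0.0438 without the dimmest 50% of rows and 0.0306 with a variance that depends on intensity, and it ran from 0.130 to 0.707 under the other settings. Without MSCT replicate 1 its unadjusted limma p was 0.0592.

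Ccl28 (NM_053700), which calls antibody-secreting cells to mucosal epithelium, measured 10.66 and 10.52 in control rats, against 9.85 and 9.71 in MSCT rats. The difference was -0.81 (standard error 0.19, 0.571-fold; adjusted p = 0.313), and without MSCT replicate 2 its unadjusted limma p was 0.0745. Cxcl14 (NM_001013137), a constitutive epithelial chemokine, measured 13.06 and 12.92 in control rats, against 12.47 and 12.57 in MSCT rats (difference -0.47, standard error 0.19; adjusted p = 0.440). Cxcl16 (NM_001017478), a transmembrane chemokine that binds Cxcr6, measured 14.23 and 13.84 in control rats, against 13.41 and 13.63 in MSCT rats (difference -0.51, standard error 0.24; adjusted p = 0.484). In each of the 4 genes both MSCT arrays were below both control arrays, and no gene reached 2-fold. Of 9 epithelial markers, 6 were measured, of which 5 were higher in the MSCT group and 0 passed the screen. They summed to 112932 and 114209 in control rats, against 127304 and 126166 in MSCT rats. The part of epithelial content in the values of the 4 ligands was not tested.

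**Figure D2:**
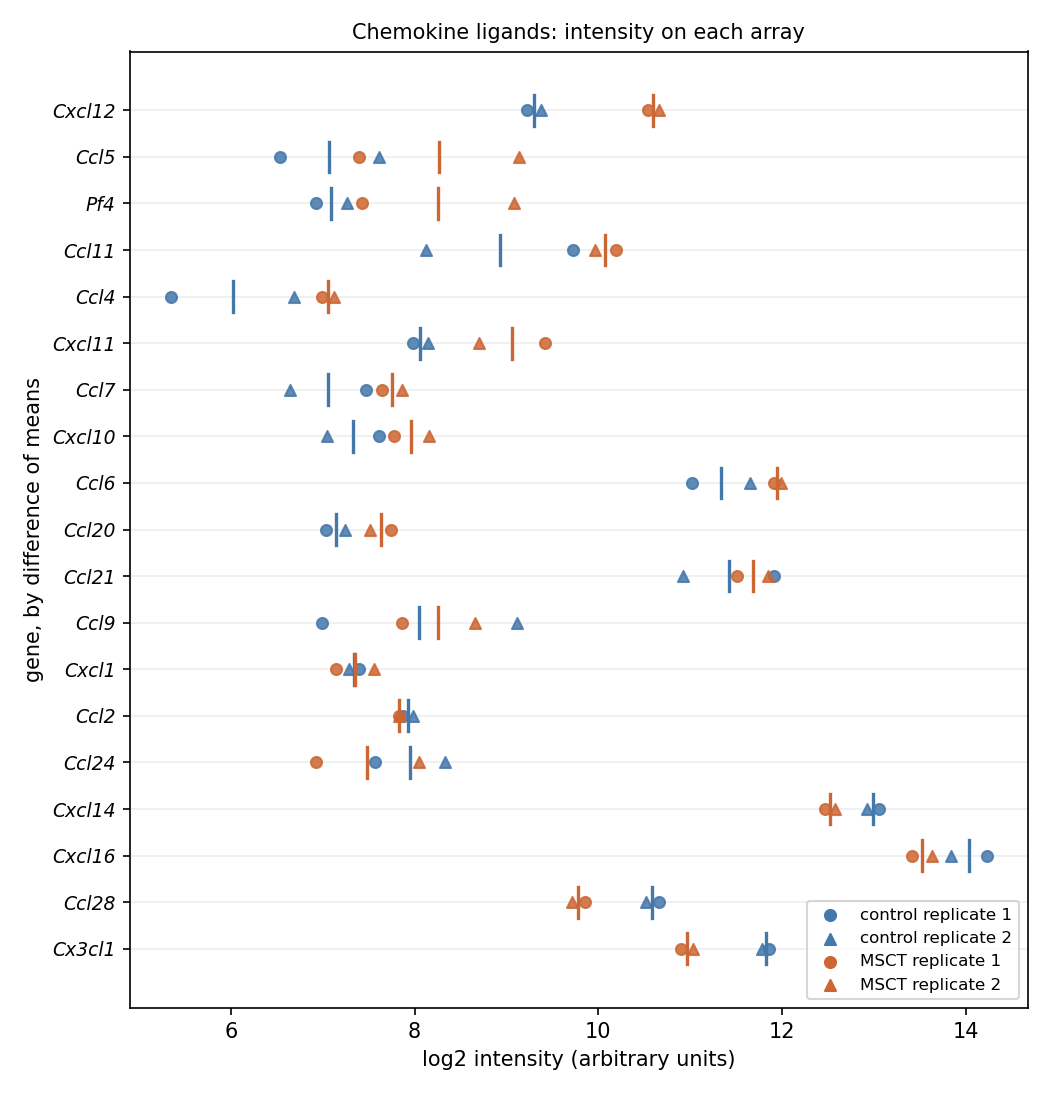
Log2 intensity (x axis) of the 19 measured ligands on each of the 4 arrays, with genes ordered by the difference of group means on the y axis. Blue and orange symbols are the control and MSCT arrays, circles and triangles replicates 1 and 2, and short vertical lines the group means; Cxcl12 at the top and Ccl28 and Cx3cl1 at the bottom have groups set far apart relative to the replicates, whereas the control arrays of Ccl9 and Ccl11 lie wide apart.

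Of the 11 measured CC ligands, 8 were higher and 3 lower in the MSCT group (median 0.49), and 0 passed the screen. An unadjusted limma p under 0.05 was found for 1 of them, Ccl28 (12.0% of all rows). Several large differences rested on a single array. Ccl5 (NM_031116), a T-cell and macrophage product that attracts cells with Ccr1, measured 6.53 and 7.61 in control rats, against 7.40 and 9.13 in MSCT rats. The groups overlapped, and the difference of 1.19 (standard error 0.71; adjusted p = 0.557) was 0.33 without MSCT replicate 2 and 2.06 without MSCT replicate 1. Ccl11 (NM_019205), or eotaxin, which attracts eosinophils, measured 9.73 and 8.13 in control rats, against 10.19 and 9.96 in MSCT rats. Control replicate 2 stood apart from the other arrays. Ccl11 passed the screen when the variance was allowed to depend on intensity, but the difference of 1.15 (standard error 0.57; adjusted p = 0.506) was 0.35 without that control array and 1.95 without control replicate 1. Ccl4 (NM_053858), a macrophage and T-cell product, measured intensities of 40.7 and 103 in control rats, against 128 and 140 in MSCT rats. Here control replicate 1 was the low array, and the log2 difference of 1.04 (standard error 0.49; adjusted p = 0.485) was 0.37 without it and 1.71 without control replicate 2.

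Ccl6 (NM_001004202), a macrophage product of rodents, measured 11.02 and 11.65 in control rats, against 11.92 and 11.98 in MSCT rats (difference 0.62, standard error 0.28; adjusted p = 0.477). Both MSCT values were higher, and the control rats differed from each other as much as the groups did. Ccl20, the epithelial ligand of Ccr6 on B cells and dendritic cells, differed by 0.49 (standard error 0.21; adjusted p = 0.459) with no overlap between the groups. The lymphatic and lymph node chemokine Ccl21 differed by 0.26 (standard error 0.39), the macrophage product Ccl9 by 0.21 (standard error 0.78) and the eosinophil ligand Ccl24 by -0.47 (standard error 0.49), each with overlapping groups. For these 3 genes the sign turned when single arrays were left out.

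Among the CC receptors, Ccr2 (NM_021866) passed the screen. Ccr2 is the receptor by which monocytes leave the bone marrow and enter inflamed tissue. It measured 6.88 and 6.95 in control rats, against 7.91 and 8.26 in MSCT rats. Its row was dim, with intensities of 117 and 124 in control rats, against 241 and 306 in MSCT rats. The groups were well apart relative to the replicates, and the difference was 1.17 (standard error 0.22, 2.26-fold; adjusted p = 0.270). When the variance was allowed to depend on intensity, this difference had a larger standard error of 0.48 (adjusted p = 0.286) and passed the screen. It passed the screen with any 1 array left out (1.00 to 1.35), though not when 32 was added to each intensity, which gave 0.9952. Its ligands did not pass the screen. Ccl2 (NM_031530), the main monocyte chemoattractant, measured 7.87 and 7.98 in control rats, against 7.83 in both MSCT rats, which gave a difference of -0.09 (standard error 0.18; adjusted p = 0.859). Ccl7 (NM_001007612) measured 7.47 and 6.64 in control rats, against 7.64 and 7.87 in MSCT rats, which gave a difference of 0.70 (standard error 0.34; adjusted p = 0.500). That difference was 1.11 without control replicate 1 and 0.28 without control replicate 2. The difference between Ccr2 and its ligands was not tested.

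No other CC receptor passed the screen. Ccr1 differed by 0.32 (standard error 0.21), Ccr7, which guides T cells and dendritic cells to lymph nodes, by 0.27 (standard error 0.65) and Ccr6 by -0.24 (standard error 0.46). The control arrays of Ccr7 lay at 7.76 and 5.92, so its difference was 1.19 without control replicate 1 and -0.65 without control replicate 2. Of the CXC receptors, Cxcr1 of neutrophils differed by 0.69 (standard error 0.43) and Cxcr5, the receptor of B cells for Cxcl13, by 0.54 (standard error 0.38), and the groups overlapped in both. Cx3cr1, the partner of Cx3cl1, measured 7.05 and 7.28 in control rats, against 7.34 and 6.54 in MSCT rats (difference -0.22, standard error 0.33).

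Ackr2 (NM_078621) had the largest difference of the 32 genes. It encodes a decoy receptor that takes up and degrades inflammatory CC chemokines, mainly on lymphatic endothelium. Its arrays lay at 7.24 and 6.49 in the control group and at 8.67 and 8.28 in the MSCT group. Every MSCT value was above every control value, with the control rats further apart than the MSCT rats. This row was also dim, with intensities of 151 and 89.9 in control rats, against 407 and 310 in MSCT rats. The difference was 1.61 (standard error 0.34, 3.05-fold; adjusted p = 0.289). Under a variance that depends on intensity, this difference had a standard error of 0.50 (adjusted p = 0.152). With 1 array left out it stayed past the screen, between 1.24 (control replicate 2 out) and 1.98 (control replicate 1 out), and in the methods' t-test it did not pass (unadjusted p of 0.0625). The endothelial markers with a measured row, Pecam1 and Kdr, differed by 0.29 and 0.05 and did not pass. Cmklr1, the receptor of chemerin, differed by -0.18 (standard error 0.25), and Rarres2, the gene of chemerin, by 0.13 (standard error 0.33).

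**Figure D3:**
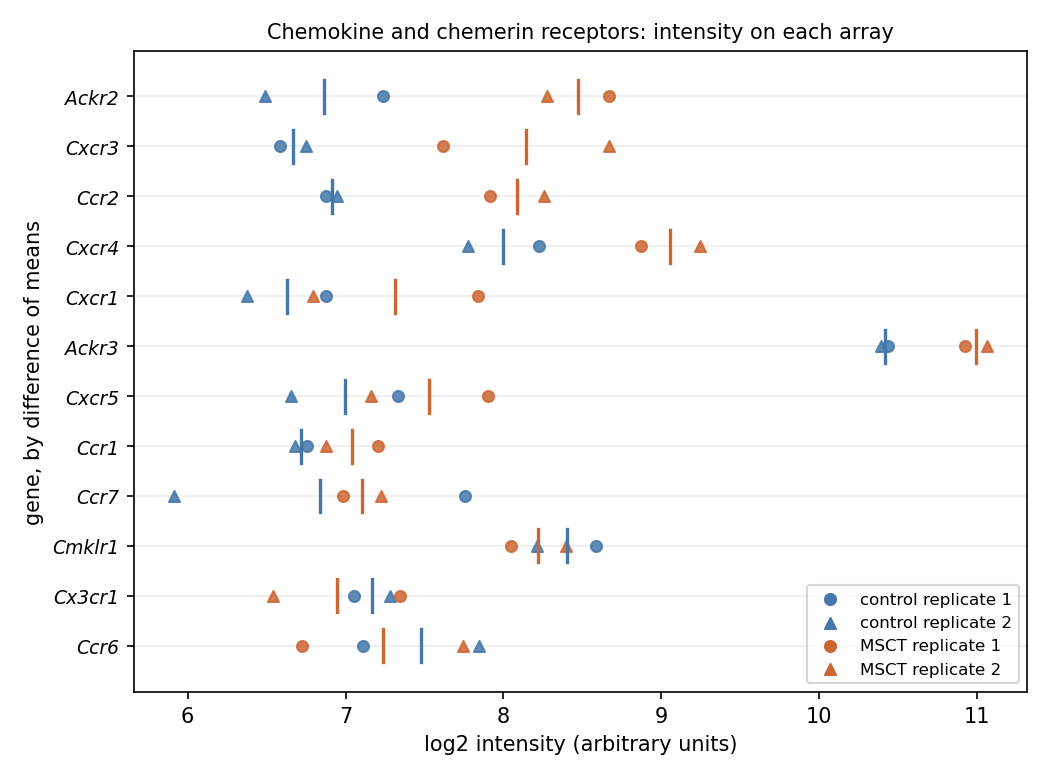
Log2 intensity (x axis) of 12 measured receptors on each of the 4 arrays, with genes ordered by the difference of group means on the y axis. Symbols and lines are as in the plot of the ligands; in Ackr2, Cxcr3, Ccr2, Cxcr4, Ackr3 and Ccr1 both MSCT arrays lie above both control arrays, and in the other 6 genes the groups overlap.

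By role, 4 of 13 receptors (30.8%) and 1 of 19 ligands (5.26%) passed the screen, against 4.63% of all rows. The medians were 0.54 for receptors and 0.49 for ligands. Whether receptors and ligands differ in this was not tested. By use, 14 of 23 inflammatory ligands were measured, with 10 higher, 4 lower, a median of 0.55 and 0 past the screen. Of 10 homeostatic ligands, 5 were measured, with Cxcl12, Ccl11 and Ccl21 higher and Ccl28 and Cxcl14 lower, a median of 0.26 and 1 past the screen. Of 32 textbook pairs of a ligand and its receptor, 13 had both genes measured. Both genes were higher in 9 pairs and both lower in 1 (Cx3cl1 and Cx3cr1), and they went opposite ways in Ccl2 with Ccr2, Ccl20 with Ccr6 and Rarres2 with Cmklr1. Pairs share genes, so these counts are a description. In one pair, Cxcl12 with Cxcr4, both genes passed the screen.

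**Figure D4:**
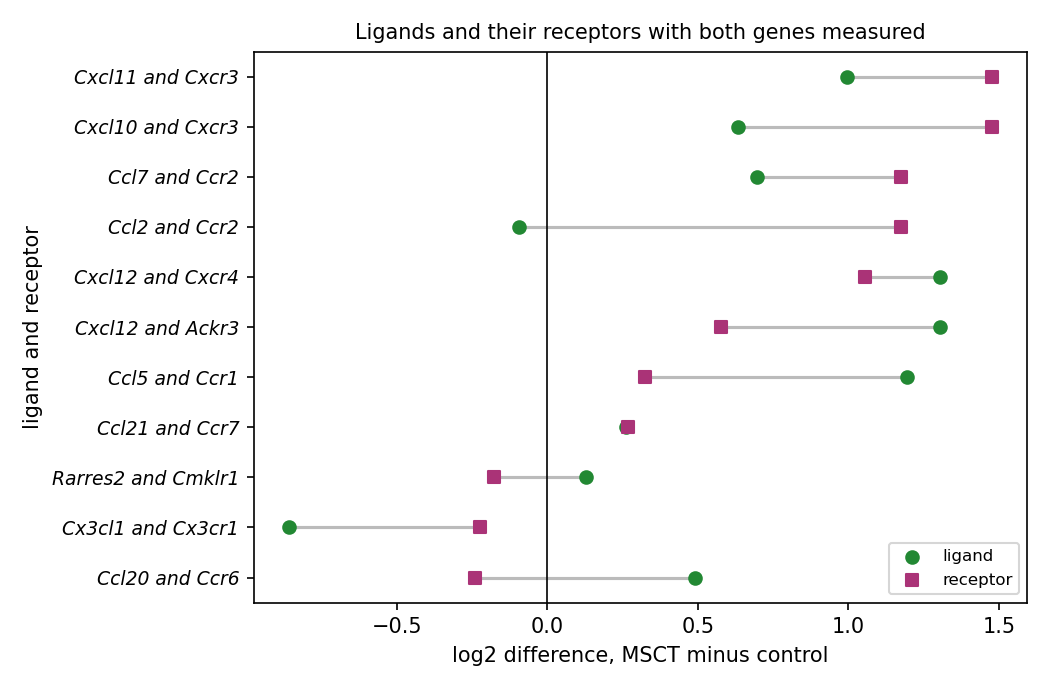
Log2 difference of the MSCT minus the control group (x axis) for the ligand (green circle) and the receptor (purple square) of 11 pairs with both genes measured (y axis), ordered by the receptor. In 7 pairs both symbols lie right of 0, and Cxcl12 with Cxcr4 is the pair with both at 1.06 or above.

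Chemokine receptors act through the inhibitory G protein subunits, arrestins and receptor kinases that end the signal, and small GTPases that drive movement. In a list of 34 such genes, 26 were measured. Of these, 14 were higher and 12 lower (median 0.04), and 1 passed the screen upward and 2 downward. Over all rows, 2.12% passed upward and 2.51% downward. Rgs16, which speeds the shut-off of G proteins, measured 9.03 and 9.42 in control rats, against 11.19 and 10.82 in MSCT rats (difference 1.78, standard error 0.25; adjusted p = 0.260). Arrb1, the gene of beta-arrestin 1, measured 11.22 and 11.31 in control rats, against 9.68 and 9.73 in MSCT rats (difference -1.56, standard error 0.18; adjusted p = 0.257). Grk3, a kinase that prepares receptors for arrestin binding, measured 9.82 and 9.88 in control rats, against 8.21 and 8.99 in MSCT rats (difference -1.25, standard error 0.32; adjusted p = 0.324). The G protein genes Gnai1, Gnai2, Gnai3 and Gnb1 differed by 0.07 to 0.22. Among 22 related chemoattractants, their receptors and chemokine-handling proteins, 12 were measured, of which 8 were higher and 4 lower (median 0.22), and 0 passed the screen. An unadjusted limma p under 0.05 was found for 3 of them (12.0% of all rows), named here after their values were seen. Cd74, a receptor of the cytokine Mif, differed by 0.88 (standard error 0.24; adjusted p = 0.331) with no overlap between the groups. Dpp4, a peptidase that clips chemokines including Cxcl12, differed by -0.94 (standard error 0.23; adjusted p = 0.319), and Adam17, a protease that sheds Cx3cl1, by -0.55 (standard error 0.18; adjusted p = 0.380).

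Markers of leukocytes that carry these receptors moved as follows, and their part in the results was not tested. Over all rows, 4.63% passed the screen. In the macrophage and monocyte list, 7 of 10 genes were measured, 6 were higher and 4 passed the screen: C1qb (1.61), Cd68 (1.29), C1qa (1.28) and Csf1r (1.00). Cd14, the brightest gene of the list, differed by -0.04, with overlapping groups. Summed over that list, intensity was 14081 and 15276 in control rats, against 19200 and 21679 in MSCT rats. In the natural killer and cytotoxic list, 3 of 7 were measured, all higher, and Gzmb (1.92) and Nkg7 (1.72) passed, with sums of 279 and 442 in control rats, against 922 and 978 in MSCT rats. The T-cell markers Cd3g, Cd4 and Cd8a, 3 of 10 measured, differed by 0.13, 0.37 and 0.01, with sums of 550 to 721 in the control group and 694 to 794 in the MSCT group. S100a9, the only neutrophil marker of 8 with values, differed by 0.54. Of the mast cell list, 3 of 7 were measured and 1 row passed (4.41). The gene table names it Mcpt1 but lists older names of more than one mast cell protease for it, so which protease it measures is uncertain. Kit and Tpsab1 differed by 0.18 and -0.09. The 2 dendritic cell and 4 smooth muscle genes measured had 0 past the screen. Beside the stromal ligand Cxcl12, 4 of 6 fibroblast genes were measured, with 0 past the screen: Col3a1 differed by 0.78, Col1a2 by 0.62, Lum by 0.03 and Dcn by 0.01. That list summed to 39945 and 26068 in control rats, against 43080 and 45099 in MSCT rats, and control replicate 2 was its low array, as it was for Ccl11 and Ccl21. No gene of the eosinophil or the B and plasma cell list had a value. None of the markers with a value was at 0.

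Blank rows left gaps in several axes. The blank ligands were Ccl3, Ccl17, Ccl22, Ccl25, Cxcl2, Cxcl6, Cxcl9, Cxcl13 and Xcl1, and the blank receptors were Ccr3, Ccr4, Ccr9, Cxcr2 and Cmklr2. Ccr4 with Ccl17 and Ccl22, gut-homing Ccr9 with Ccl25, and Cxcr2 with Cxcl2 and Cxcl6 could therefore not be compared on either side. The remaining 13 genes could not be tied to a row through their symbols and were not analysed here: Ccl1, Ccl12, Ccl19, Ccl26, Ccl27, Cxcl3, Cxcl17, Ccr8, Ccr10, Cxcr6, Xcr1, Ackr1 and Ackr4. Since a blank row gives no bound, it cannot be read as a low level.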

How the data were processed

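Total RNA of colon tissue was converted to cDNA, labeled with Cy3 and hybridized to NimbleGen arrays, 1 array per rat and 2 per group. The authors scanned the arrays with an Axon GenePix scanner, used NimbleScan and deposited 1 linear intensity per RefSeq transcript and array; the submitters' processing notes name RMA. The background correction, probe summary and blanking rule are not given in the sources used here. The number of arrays limits the precision, and an exact two-sided permutation test of 2 against 2 cannot go below p = 0.333. Whether replicates came from separate batches is not stated, so p-values cannot be taken to cover a spread between batches. The limma p-values rest on the spread between these rats together with the variance borrowed across rows.

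Intensities were used as log2 values with no further scaling, pseudocount or filter, and limma 3.58.1 in R 4.3.3 (lmFit, eBayes) was fitted to all 18350 measured rows with Benjamini-Hochberg adjustment. The fit was tested on simulated data with changes larger than that of any member, so that test does not cover the differences of the members. Names came from the GRCr8 gene table after removal of version numbers (7010 of 7292 measured NM rows and 58 of 11058 XM rows); every member had 1 row, so the rule of keeping the row with the highest mean changed nothing. The study names no test for the chips. What is called the methods' t-test here is the one-way analysis of variance of its statistics section, applied to the same values. Members, lists and tests were chosen with earlier results of these data known. Measured members are named, except 1 that counts in the totals and is not reported here. All 4 values are given for members with an unadjusted p under 0.05 or over 2-fold, the brightest of each role and partners of genes past the screen. Up to 4 genes per list past the screen in each direction are named; other list genes were chosen after their values were seen. Alternatives were quantile normalization, arrays set to one median, removal of the dimmest 25% or 50%, a pseudocount of 32, each array left out, the replicate number as a block, a variance with intensity trend and robust options, the methods' t-test and a fold limit of 1.5. Names, promoter motifs and figures were handled in Python 3.11.15 (pandas 2.3.3, matplotlib 3.10.9).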

Additional observations from a re-analysis of the deposited data

How the results depend on the processing

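Of the 32 measured genes, 5 passed the screen, all higher in the MSCT group, beside 4.63% of all rows. The number was 2 (of 13 tested) without the dimmest 25% of rows and 1 (of 8 tested) without the dimmest 50%, where fewer genes were tested (4.28% and 2.74% of rows passed). It was 3 with a pseudocount of 32 (3.83% of rows), 2 in the methods' t-test (2.11%) and 8, 2 of them lower, with a fold limit of 1.5 (11.0%). It was 6 after quantile normalization, with equal array medians and with an intensity trend, where 4.49% to 4.76% of rows passed. With each array left out it was 4 to 7 (a lone array was assumed to vary like the other group): 7 without control replicate 1 (5.09% of rows), 4 without control replicate 2 (8.53%), 7 without MSCT replicate 1 (5.68%) and 5 without MSCT replicate 2 (8.19%). The genes whose groups did not overlap numbered 20 (45.8% of all rows), and 10 and 7 under the 2 filters (49.1% and 50.9% of rows). They numbered 24 to 27 with each array left out, where 69.2% to 77.6% of all rows did not overlap, since 2 arrays then stand against 1. The median difference of all members was 0.51, -0.10 without the dimmest 50% of rows and 0.33 to 0.49 with each array left out. The median of the ligands was 0.49, -0.47 without the dimmest 50% and 0.33 to 0.60 with each array left out. That of the receptors was 0.54, 0.44 with the pseudocount and 0.27 to 0.88 with each array left out. With the replicate number as a block, 7 members passed, Ccl5 and Pf4 in addition (5.29% of rows). The deviations of same-numbered arrays correlated at 0.234, but with a single pair of groups the numbers were not shown to pair the rats. The sign of 8 single genes turned when 1 array was left out, and the cause was not tested: Ccl9 (-0.85 to 1.27), Ccr7 (-0.65 to 1.19), Ccl21 (-0.24 to 0.76), Ccl24 (-1.03 to 0.10), Ccr6 (-0.75 to 0.27), Cmklr1 (-0.36 to 0.0057), Cx3cr1 (-0.62 to 0.18) and Cxcl1 (-0.19 to 0.22). Of 362 values of single genes under alternatives, 325 kept direction and side of the threshold, 16 newly passed, 10 no longer passed and 11 changed sign. Many of the 362 values could not change sign. The block, the intensity trend, the methods' t-test, the fold limit of 1.5 and the 2 filters leave the difference itself unchanged. A lower fold limit can only add genes, and genes far from the cut-offs keep their side, so these counts do not measure robustness. Taking the row with the largest difference per gene could change nothing, since each member had 1 row.

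Signal over background is not given in the sources used here, and 19 of the 32 genes lay in the dimmest 25% of rows. With 2 rats per group, a difference that missed the screen is not shown to be absent.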
